A study of Mus musculus with 6 samples.

Results

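Apln, Aplnr, Angpt1, Angpt2, Tek, Tie1 and Esm1 encode the apelin ligand and receptor, 2 angiopoietin ligands, the 2 Tie receptors and endocan. They were picked by name, and are 7 of the 31053 genes counted in the single-cell libraries of developing mouse lung. Each gene was followed in endothelial cells (ECs), defined as cells with at least 2 UMIs (unique molecular identifiers, each standing for 1 captured transcript) of Pecam1 plus Cdh5. This gate took 32105 of the 59793 cells that passed quality filters. In 2 further libraries made from whole lungs, the genes were also followed in the other cell classes.

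All mice carried a Cxcl12DsRed allele, in which the red fluorescent protein DsRed replaces Cxcl12 at its own locus, so no library came from wild-type lungs. Lungs of Cxcl12DsRed/+ mice were pooled by age (E13.5, E15.5, E18.5, P8) for 4 sorted libraries. The study describes a sort by flow cytometry for DsRed+/CD31+/EpCAM-/CD45- cells, but at E13.5 the EC gate took 1.65% of the cells kept. Values of these libraries are given in age order. The reporter follows Cxcl12, so among ECs the sort favours arterial cells and the shares of EC types in these libraries are set by it. The whole-lung libraries were made at E18.5 without a sort, 1 labelled Cxcl12DsRed/DsRed (null) and 1 labelled Cxcl12DsRed/+ (control). Every condition was 1 library, so values of a time point or a genotype are given with exact 95% Poisson intervals that cover counting error only, and without a test.

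Cxcl12 itself was read first, because it checks the genotype labels. In ECs of the sorted libraries it stood at 853, 720, 1210 and 1115 CPM (UMIs of the gene after scaling the UMIs of all genes in those cells to the same fixed total). In whole lungs it stood at 4.24 CPM in the library labelled control and at 499 CPM in the library labelled null. These levels go against the labels of the whole-lung libraries, and the genotypes in the names of their deposited files are also the reverse of the labels. The libraries are therefore called "the library labelled control" and "the library labelled null" throughout. Xist, the transcript of the inactive X chromosome in female cells, stood at 0.145 CPM in ECs of the library labelled control and 697 CPM in the library labelled null. The 2 libraries thus also differ in sex, with female cells found in the library labelled null.

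The libraries held 63746333 to 117522172 UMIs. The EC gate took 210 cells at E13.5, where most sorted cells were mesenchymal, and 9453, 9119 and 8259 cells at the later ages. It took 2022 cells in the library labelled control and 3042 in the library labelled null, of which 89.7% and 91.1% fell in 6 clusters whose closest marker list was endothelial or lymphatic endothelial. These are called endothelial clusters, although 3 of them did not meet the rules for a name, the largest led by Kit, Gpr182 and Ctla2a, 1 led by cell cycle genes and 1 by haemoglobin genes. ECs with at least 3 UMIs from 8 genes of other cell classes made up 26.7% at E13.5, 5.84%, 1.46% and 0.521% at the later sorted ages, and 16.0% and 14.8% in the libraries labelled control and null. The 2 whole-lung libraries shared 140 cell barcodes, against 20 to 54 for every other pair of libraries. Leaving out cells with a shared barcode changed no call among the 7 genes.

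ECs were split by markers of 3 vascular beds, each at 2 or more UMIs. Gja4 encodes an arterial gap junction protein, Gpihbp1 is a marker of general capillaries and Car4 is a marker of the alveolar capillary cells that lie against the gas exchange surface. Gated cells met only 1 of these markers. Cells with Gja4 only, Gpihbp1 only and Car4 only numbered 5657, 1120 and 3 in the E15.5 library, 3743, 1753 and 267 in the E18.5 library, and 1525, 936 and 223 in the P8 library. They numbered 238, 1169 and 20 in the library labelled control and 647, 1178 and 41 in the library labelled null. At E13.5 nearly all were Gja4-only cells (190), with 2 Gpihbp1-only cells. Cells with several markers were left out of these gates, and made up 16.0%, 27.6% and 63.0% of ECs from the E15.5 to the P8 library, so the gates hold a minority of the P8 ECs.

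Apelin is a secreted peptide that acts on the G protein-coupled receptor APLNR to guide vessel growth. In the lung, Apln is a known marker of alveolar capillary cells and was used as one in this study, and Aplnr is a marker of general capillary cells. Angiopoietin 1, released mainly by mesenchymal and mural cells, activates the receptor tyrosine kinase TIE2, encoded by Tek, and steadies vessels, whereas angiopoietin 2 often opposes it. TIE1 is a related receptor that associates with TIE2. Esm1 encodes endocan, a proteoglycan known as a marker of tip cells, the leading cells of a sprout.

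The promoters of Apln, Esm1 and Tek are shown because these genes had the clearest and most divergent patterns across the gates. Each line gives the 250 bases before the start of transcription in the RefSeq table for GRCm38.p6, 5′ to 3′ on the gene's strand, with the ETS core GGAA or its reverse complement TTCC in capitals.
Apln, chrX:48034854-48035103, minus strand: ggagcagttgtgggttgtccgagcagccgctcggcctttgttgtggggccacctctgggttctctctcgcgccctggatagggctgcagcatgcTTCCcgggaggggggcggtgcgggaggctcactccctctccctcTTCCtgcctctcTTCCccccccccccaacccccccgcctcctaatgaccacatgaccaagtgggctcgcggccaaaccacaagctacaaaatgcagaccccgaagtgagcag
Esm1, chr13:113209409-113209658, plus strand: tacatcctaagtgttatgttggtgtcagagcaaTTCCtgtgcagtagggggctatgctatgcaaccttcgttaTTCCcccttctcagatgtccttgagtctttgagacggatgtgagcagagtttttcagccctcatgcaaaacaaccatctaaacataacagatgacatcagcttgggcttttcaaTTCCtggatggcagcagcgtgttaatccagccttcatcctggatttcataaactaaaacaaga
Tek, chr4:94739039-94739288, plus strand: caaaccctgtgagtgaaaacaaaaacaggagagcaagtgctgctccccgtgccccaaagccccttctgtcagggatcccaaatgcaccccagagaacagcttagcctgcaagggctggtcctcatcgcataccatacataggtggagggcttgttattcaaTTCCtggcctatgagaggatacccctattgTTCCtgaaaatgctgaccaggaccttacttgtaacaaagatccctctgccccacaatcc

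The ETS core, the short sequence bound by a family of factors active in endothelium, occurred 3 times in the Apln and Esm1 windows and 2 times in the Tek window. A match to these 4 letters was found in 93.4% of 32851 mouse promoter windows of this length, so it sets none of the genes apart. The letters ACGTG (present in 16.6% of promoter windows on either strand), GTAAACA (3.17%) and AGATAA (9.99%) were absent from the windows of all 4 members in the RefSeq table, which were Apln, Esm1, Tek and Tie1. In GENCODE M21 coordinates for GRCm38, Apln lies on chromosome X from 48025146 to 48034853 and Aplnr on chromosome 2 from 85136225 to 85139923. Angpt1 spans chromosome 15 from 42424723 to 42676977, where exons of Gm17473 overlap it on the opposite strand. Angpt2 spans chromosome 8 from 18690263 to 18741562 and lies inside the Mcph1 gene without sharing exons. Tek and Tie1 lie on chromosome 4, from 94739289 to 94874976 and from 118471191 to 118490061. Esm1 lies on chromosome 13 from 113209659 to 113218098, overlapping the Gzmk gene but none of its exons. The sources used here do not state whether counting used the strand.

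The gates were compared within libraries on summed UMIs by edgeR's quasi-likelihood test with Benjamini-Hochberg adjustment over all genes. Car4-only and Gpihbp1-only cells could be compared in 4 libraries (sorted E18.5, P8 and both whole lungs). Of the 7 genes 1 was higher and 3 were lower in Car4-only cells at an adjusted p under 0.05, where 6.26% of all 14450 tested genes were higher, 7.91% lower and 14.2% either. Gja4-only and Gpihbp1-only cells could be compared in 5 libraries, E15.5 added. Here 2 genes were higher and 3 lower in Gja4-only cells, against 13.7% higher, 14.9% lower and 28.6% in either direction among all genes. In Car4-only against Gja4-only cells 1 gene was higher and 2 were lower, against 10.3%, 10.5% and 20.8% of all genes. The fit, with library as a covariate, also held ungated cells and the E13.5 Gja4-only cells. In an alternative with cells of several markers admitted, such cells entered each gate they met. Those gates share cells, which draws their levels together, and the test treats them as separate populations. The libraries differ in age and in sort, and nothing says that they are replicate animals. Each p-value sets the fitted gate difference against the variation that library and gate leave unexplained. That variation is taken over all populations in the fit, ungated cells included, and is no spread between replicate animals. In the plot of gate contrasts, Apln, Tek and Esm1 pass all 3 tests and Tie1 and Angpt2 pass none.

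Between ages, calls rest on a 2-fold difference among genes of 10 CPM or more in either library, with no test. In all ECs, E15.5 exceeded E13.5 by 2-fold for Apln and Aplnr, which are 2 of 5 members at this level, against 2.59% of genes higher and 4.55% lower. Apln reached 10 CPM at E15.5 alone (16.2 against 3.88 CPM, the latter from 7 UMIs). Apln and Aplnr were also 2 of 4 in Gja4-only cells, against 2.77% and 4.62%, where they reached 10 CPM at E15.5 alone and had 2 and 3 UMIs at E13.5. From E15.5 to E18.5 0 of 5 members passed 2-fold, against 8.91% higher and 4.80% lower. From E18.5 to P8 Apln and Esm1, again 2 of 5, were higher, against 4.15% higher and 4.31% lower. Within gates, the step from E15.5 to E18.5 had 1 of 4 members higher (Tek) and 2 lower (Apln and Aplnr) in Gja4-only cells, where 7.46% of genes were higher and 3.92% lower. Apln and Aplnr reached 10 CPM at E15.5 alone, and neither passed 2-fold in all cells with Gja4 (12.7 and 11.5 CPM of Apln, 26.8 and 20.8 CPM of Aplnr). The same step had 0 of 5 members past 2-fold in Gpihbp1-only cells, where 13.7% were higher and 5.98% lower. The step from E18.5 to P8 had 2 of 4 members higher in Gja4-only cells (Aplnr and Esm1), against 4.37% higher and 3.81% lower, and 1 of 5 in Gpihbp1-only cells (Esm1), against 5.03% and 3.57%. In Gja4-only cells Aplnr (6.90 and 38.7 CPM) and Esm1 (9.78 and 43.2 CPM) reached 10 CPM at P8 alone. All cells with Gja4 held 20.8 and 78.3 CPM of Aplnr and 14.8 and 89.0 CPM of Esm1 at these ages. In Car4-only cells 1 of 4 was higher (Apln) and 1 lower (Aplnr), against 7.84% and 6.55%. Aplnr reached 10 CPM there at E18.5 alone (41.6 and 7.29 CPM, 9 UMIs at P8). In all cells with Car4 it went from 46.3 to 73.0 CPM. ECs with none of the 3 markers had 1 of 6 members lower at E18.5 than at E15.5 (Aplnr, 75.1 against 154 CPM), against 14.6% of genes higher and 7.40% lower. From E18.5 to P8 these ungated cells had 2 of 6 members higher (Tek, from 123 to 284 CPM, and Esm1, from 15.3 to 47.8 CPM) and 1 lower (Angpt2, from 12.4 to 3.24 CPM), against 7.33% and 4.79%. Angpt2 reached 10 CPM there at E18.5 alone and had 4 UMIs at P8.

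**Figure D1:**
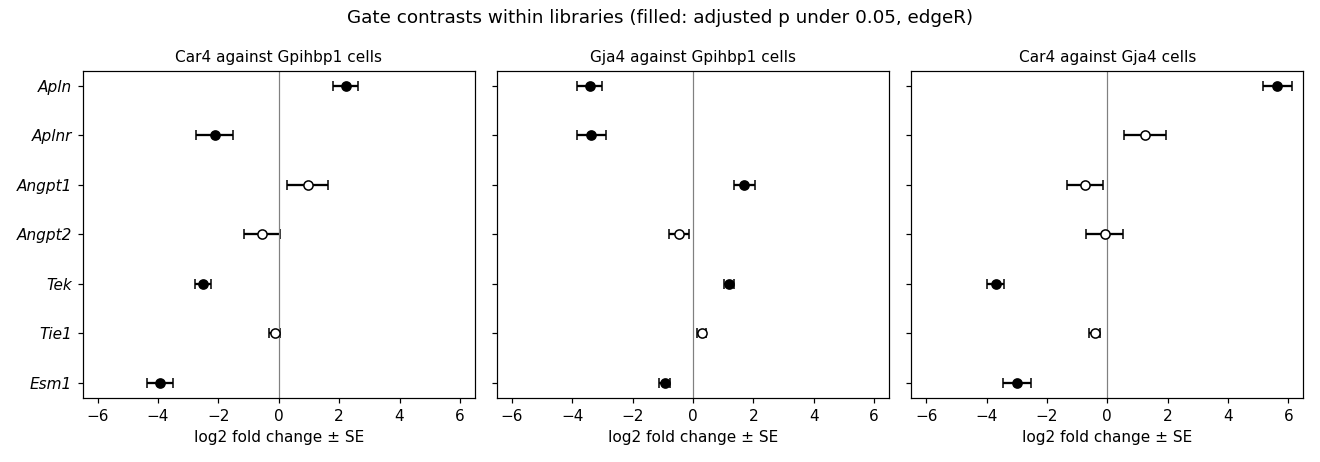
Fitted log2 fold change (dot) and standard error (bar) of each gene between EC gates, with library as a covariate; filled dots passed an adjusted p under 0.05. Apln and Tek are displaced in opposite directions in every panel, and Tie1 and Angpt2 have open dots in all 3.

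Apln, the apelin ligand, was highest in Car4-only cells, intermediate in Gpihbp1-only cells and lowest in Gja4-only cells. Car4-only cells held 159 CPM at E18.5, 426 CPM at P8, 107 CPM in the library labelled control and 104 CPM in the library labelled null. Gpihbp1-only cells held 30.5 CPM (E15.5), 51.1 (E18.5), 48.1 (P8), 40.1 (labelled control) and 37.0 (labelled null). Gja4-only cells held 10.2 CPM (E15.5), 3.19 (E18.5), 2.53 (P8), 1.37 (labelled control) and 1.13 (labelled null). The 3 sets of values did not overlap. The log2 fold change was 2.21 ± 0.40 (SE, adjusted p = 0.00134) for Car4-only over Gpihbp1-only cells, a 4.64-fold difference. Gja4-only cells fell below Gpihbp1-only cells by 3.42 ± 0.41 on the log2 scale (adjusted p = 6.41e-06), and Car4-only cells exceeded Gja4-only cells by 5.63 ± 0.48 (adjusted p = 2.56e-07). Apln passed in 16 of 16 settings of the analysis in each contrast, but the sizes depended on the gates. With cells of several markers admitted the 3 log2 fold changes were 1.42, -1.25 and 2.67, and with 1 library left out they ranged from 1.63 to 2.43, -4.43 to -3.21 and 4.84 to 6.46.

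Thinning every cell to 2000 UMIs, so that depth was equal, gave the same order. At E18.5 26.7% of 258 Car4-only cells held an Apln UMI (exact binomial interval 21.4 to 32.6%), against 8.30% of 1734 Gpihbp1-only cells and 0.352% of 3697 Gja4-only cells. At P8 the shares were 48.4% of 217, 6.12% of 898 and 0.470% of 1488 cells. Mesenchymal cells of the sorted libraries, which should lack Apln, had shares of 0.246% at E13.5 and 0.164% at E15.5, and 0 of 245 cells at E18.5, which allows a share of up to 1.22%. At P8 it was 0 of 61 cells, which allows up to 4.92%. The Gja4-only shares at E18.5 and P8 lay within the limits of the same age. At E15.5 the share was 1.88% (1.54 to 2.26%) of 5650 Gja4-only cells, above the mesenchymal 0.164% (0.0339 to 0.480%). The Gja4-only level at E18.5, 3.19 CPM (2.50 to 4.01), stood beside 0.895 CPM (0.108 to 3.23) in mesenchymal cells. Median depths at E18.5 were 8454 UMIs in mesenchymal and 5450 in Gja4-only cells. Before thinning, 47.2% and 80.3% of Car4-only cells held an Apln UMI at E18.5 and P8, with medians of 5137 and 5474 UMIs per cell.

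**Figure D2:**
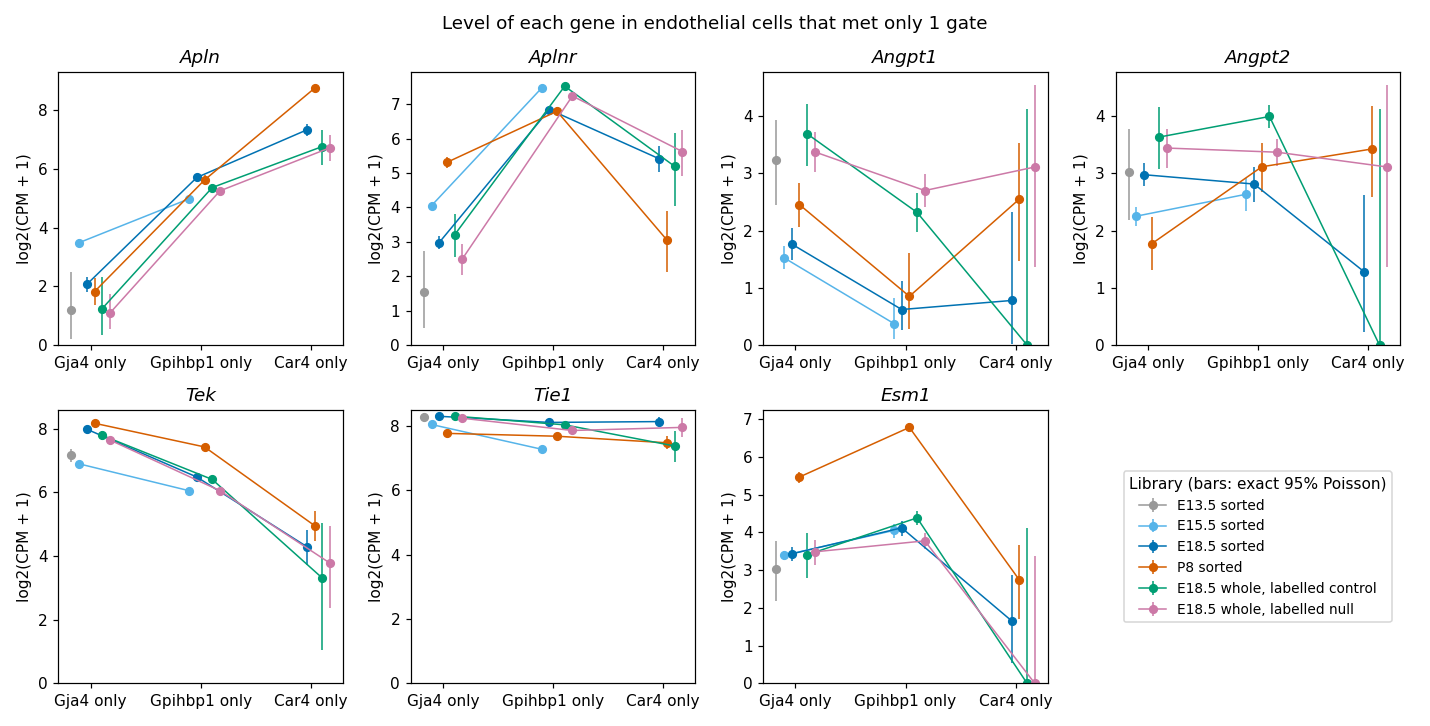
Level of each gene, as log2(CPM + 1), in cells that met only 1 of the 3 gates (x axis), by library (colour); bars are exact 95% Poisson intervals, and populations with fewer than 20 cells are not drawn. Among libraries with more than 1 gate drawn, Apln climbs from Gja4-only towards Car4-only cells, Tek descends, Aplnr peaks in Gpihbp1-only cells and Tie1 stays within a narrow band.

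Over time, Apln in all sorted ECs stood at 3.88 CPM (interval 1.56 to 8.00), 16.2 CPM (15.4 to 17.0), 28.4 CPM (27.0 to 29.7) and 67.4 CPM (65.4 to 69.5) in age order. None of these intervals overlap. P8 exceeded E18.5 by 1.23 on the log2 scale (1.17 to 1.33), where the median of all genes was 0.04. Within gates the P8 value was above E18.5 in Car4-only cells (log2 ratio 1.42, 1.19 to 1.65) but not in Gpihbp1-only cells (-0.09, -0.31 to 0.13) or Gja4-only cells (-0.29, -1.09 to 0.37). These gates leave out most P8 ECs, and the result changed when cells with several markers were admitted. All cells with Gja4 then went from 11.5 to 52.2 CPM, all with Gpihbp1 from 39.1 to 69.5 CPM and all with Car4 from 99.2 to 170 CPM, populations that share cells. Cells with several markers went from 33.2 to 73.2 CPM. From E15.5 to E18.5 the log2 ratio was 0.74 in Gpihbp1-only cells and -1.54 in Gja4-only cells, but in all cells with Gja4 the level was 12.7 CPM (11.9 to 13.6) and 11.5 CPM (10.5 to 12.6), which overlap. The Car4-only gate held 3 of 9453 ECs at E15.5, and by E18.5 it held 267 of 9119.

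**Figure D3:**
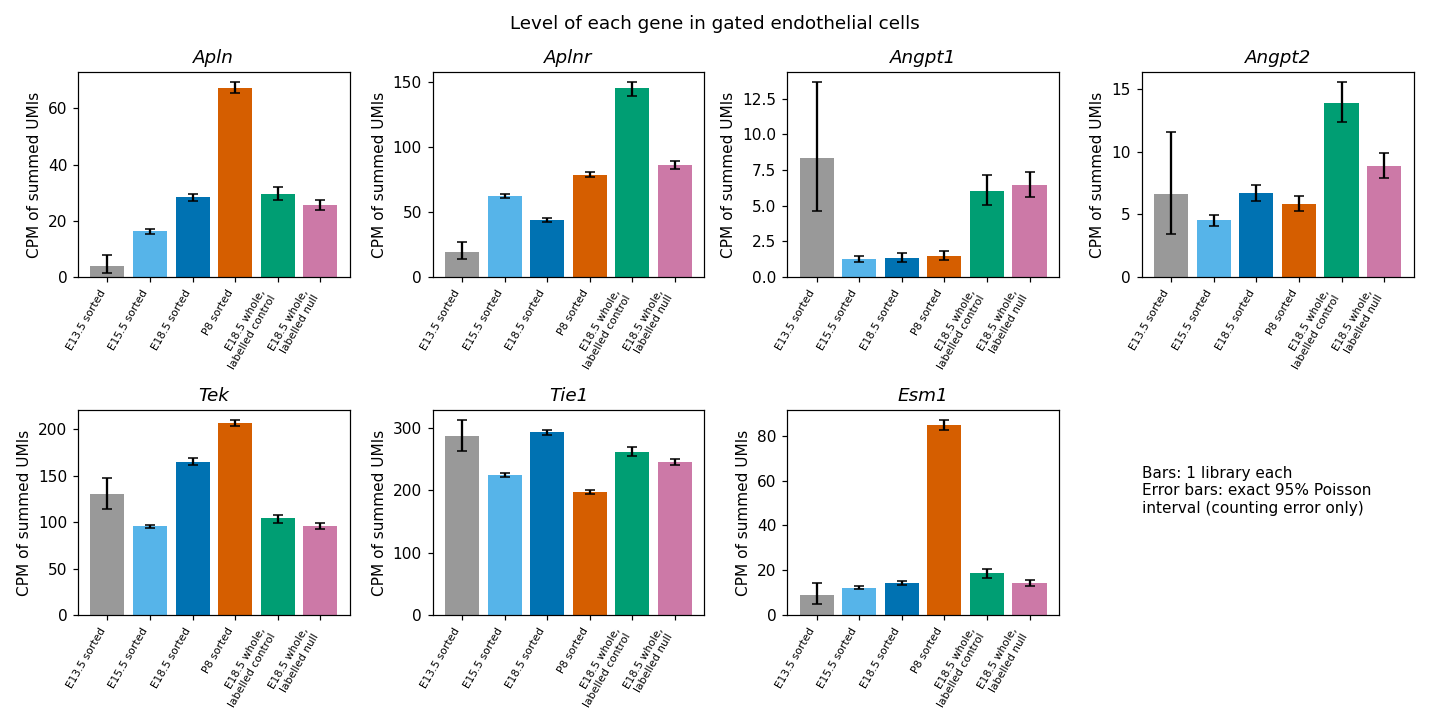
Level of each gene in all gated ECs of the 6 libraries, as CPM of summed UMIs; each bar is 1 library and error bars are exact 95% Poisson intervals. Apln and Esm1 are highest at P8, at 67.4 and 84.6 CPM, and the whole-lung libraries are highest for Aplnr and Angpt2.

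Aplnr, the receptor for apelin, was highest in Gpihbp1-only cells among the 3 marker gates of the 5 libraries compared. These held 176 CPM (E15.5), 114 (E18.5), 110 (P8), 183 (labelled control) and 150 (labelled null). Gja4-only cells held 15.6, 6.90, 38.7, 8.23 and 4.68 CPM in the same order, all below the lowest Gpihbp1-only value. ECs with none of the markers held 154, 75.1, 69.7, 200 and 89.6 CPM, which in the library labelled control is above the Gpihbp1-only level. The log2 fold change of Gja4-only over Gpihbp1-only cells was -3.37 ± 0.47 (adjusted p = 2.89e-05), and it passed in 16 of 16 settings with a range of -4.15 to -1.31, the smallest difference being that with cells of several markers admitted. Ligand and receptor were thus both low in Gja4-only cells but were highest in different capillary gates.

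In Car4-only cells Aplnr stood at 41.6 CPM at E18.5, 7.29 at P8, 35.6 in the library labelled control and 48.3 in the library labelled null. All 4 were below the Gpihbp1-only cells of the same library, and the log2 fold change was -2.13 ± 0.62 (adjusted p = 0.0284). That call held in 8 of 16 settings, with an adjusted p of 0.00329 to 0.308. With cells of several markers admitted the difference itself shrank, to -0.65 (adjusted p = 0.308). It was also lost when 3 of the 4 libraries were left out one at a time, but there the size stayed between -2.81 and -2.08. Against Gja4-only cells, Car4-only cells did not pass (1.24 ± 0.69, adjusted p = 0.242), and P8 went the other way from the 3 E18.5 libraries. With cells of several markers admitted it was 0.66 (adjusted p = 0.158). At P8 the Car4-only level was below the Gja4-only level, 7.29 against 38.7 CPM, whereas at E18.5 it was above it, 41.6 against 6.90 CPM. The P8 difference rests on 9 UMIs in the 223 Car4-only cells. Among all 1783 P8 cells with Car4 and all 6363 with Gja4, which share cells, Aplnr was 73.0 and 78.3 CPM.

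In all sorted ECs Aplnr was 19.4, 62.5, 43.8 and 78.6 CPM in age order, a course that went up, down and up with no overlap of the intervals. The E13.5 level is fragile, since 22 of its 35 UMIs came from 2 Gpihbp1-only cells, the 190 Gja4-only cells stood at 1.94 CPM, and ECs without UMIs of other classes stood at 9.50 CPM. Within Gpihbp1-only cells the E18.5 and P8 levels differed by less than counting error (log2 ratio -0.06, -0.21 to 0.09). Gja4-only cells were higher at P8 than at E18.5 by 2.41 on the log2 scale (2.21 to 2.77), and Car4-only cells were lower by 2.43 (fold 0.185, from 9 against 58 UMIs). The direction in Car4 cells turned when those with several markers were admitted, at 46.3 CPM in all 852 cells with Car4 at E18.5 and 73.0 CPM at P8.

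Cells with both an Apln and an Aplnr UMI were found at every age from E15.5 on. After thinning, 16.6% of 283 Apln+ cells at E15.5 also held Aplnr, against 8.86% of Apln- cells. The shares were 10.5% and 6.69% at E18.5 and 10.8% and 13.9% at P8, so the order at P8 was the other way round. In the library labelled null 27.0% of 111 Apln+ cells held Aplnr, against 13.9% of the rest, and in the library labelled control 28.4% of 102 against 24.7%. These shares come from cells of 1 library each and were not tested.

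Angpt1, which encodes the TIE2 agonist, was low in ECs. It stood at 8.32 CPM at E13.5, at 1.24, 1.33 and 1.46 CPM at the later ages, and at 6.03 and 6.46 CPM in the libraries labelled control and null. Sorted mesenchymal cells held 24.4, 4.30, 46.5 and 74.1 CPM at the 4 ages, from 12282, 1848, 246 and 61 cells, each above the ECs of its library. Summed CPM of 5 mesenchymal markers (Col1a1, Col1a2, Col3a1, Pdgfra and Pdgfrb, all 5 detected in the ECs of every library) went from 756 at E13.5 to 18.6 at P8, and were 373 and 589 in ECs of the libraries labelled control and null. With the ECs holding 3 or more UMIs of other classes left out, Angpt1 was 2.85 CPM at E13.5, 0.490 in the library labelled control and 1.22 in the library labelled null.

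Between gates, Angpt1 was higher in Gja4-only than in Gpihbp1-only cells of all 5 libraries. The pairs were 1.88 and 0.298 CPM (E15.5), 2.40 and 0.539 (E18.5), 4.48 and 0.805 (P8), 11.9 and 3.98 (labelled control) and 9.36 and 5.49 (labelled null). The log2 fold change was 1.70 ± 0.36 (adjusted p = 0.00167), and 2.79 (adjusted p = 2.43e-05) without the cells that held UMIs of other classes. It passed in 15 of 15 settings with a range of 0.97 to 2.79, the smallest with cells of several markers admitted (adjusted p = 0.0284). Mesenchymal marker sums were also higher in Gja4-only cells of 4 libraries, at 328 against 212 CPM (E15.5), 158 against 105 (E18.5), 31.7 against 21.3 (P8) and 436 against 325 (labelled control), but not in the library labelled null, at 508 against 604. At 4 to 6 UMIs in Gpihbp1-only cells of each sorted library, the size of the difference is imprecise. Car4-only cells held 1, 6, 0 and 3 Angpt1 UMIs in the 4 libraries and could not be told from either gate (adjusted p = 0.409 and 0.452).

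Angpt2, whose product is stored in and released by ECs in many vessels, was also low in these ECs. It stood at 6.66, 4.53, 6.69 and 5.85 CPM in the sorted libraries, and at 13.9 and 8.88 CPM in the libraries labelled control and null. Sorted mesenchymal cells held 19.2, 65.2, 51.4 and 23.3 CPM, more than ECs at each age. No contrast between gates passed, with log2 fold changes of -0.56 ± 0.59, -0.47 ± 0.32 and -0.09 ± 0.61 (adjusted p = 0.601, 0.305 and 0.956). In Gpihbp1-only cells the sorted levels from E15.5 on, 5.21, 6.02 and 7.65 CPM, had overlapping intervals. In Gja4-only cells they were 3.76 (3.25 to 4.33), 6.86 (5.83 to 8.02) and 2.41 CPM (1.49 to 3.69), with E18.5 above both other ages. In all cells with Gja4 they were 3.86 (3.41 to 4.34), 6.62 (5.86 to 7.46) and 5.58 CPM (4.95 to 6.27), and E18.5 and P8 then overlap.

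Tek, encoding TIE2, followed the opposite order to Apln. Gja4-only cells held 118 CPM (E15.5), 252 (E18.5), 287 (P8), 220 (labelled control) and 199 (labelled null). Gpihbp1-only cells held 65.3, 88.3, 171, 83.7 and 65.3 CPM, and Car4-only cells held 18.6 CPM at E18.5, 30.0 at P8, 8.90 in the library labelled control and 12.7 in the library labelled null. Every library with 3 gates had the order Gja4-only, Gpihbp1-only, Car4-only. Gja4-only cells exceeded Gpihbp1-only cells by 1.18 ± 0.17 on the log2 scale (adjusted p = 3.85e-05), a 2.26-fold difference. Car4-only cells fell below Gpihbp1-only cells by 2.51 ± 0.28 (adjusted p = 3.66e-05) and below Gja4-only cells by 3.69 ± 0.28 (adjusted p = 6.21e-08), which is 12.9-fold.

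Counted in thinned cells, 39.2% of Gja4-only cells at E18.5 held a Tek UMI, against 16.5% of Gpihbp1-only and 2.71% of Car4-only cells. At P8 the shares were 42.1%, 28.6% and 5.07%. Sorted mesenchymal cells had a share of 1.22% at E18.5. With cells of several markers admitted to each gate, the contrasts with Gpihbp1 cells shrank to -0.94 for Car4 and 0.65 for Gja4 cells and missed the threshold (adjusted p = 0.0525 and 0.0588). The contrast of Car4 with Gja4 cells shrank to -1.59 and passed (adjusted p = 0.000393).

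In all sorted ECs, Tek was 130 CPM (114 to 148), 95.4 CPM (93.4 to 97.4), 165 CPM (162 to 169) and 207 CPM (203 to 210) in age order. The lowest level was thus at E15.5. Gja4-only cells were higher at E18.5 than at E15.5 by 1.10 on the log2 scale (1.05 to 1.15). Gpihbp1-only cells were higher at P8 than at E18.5 by 0.95 (0.82 to 1.09). Cxcl12 in this gate was also higher at P8, at 416 against 54.8 CPM. Whether the gate held the same kind of cells at both ages was not tested. After thinning, Tek was found in 7.23% of Apln+ and 28.5% of Apln- cells at E18.5, and in 17.9% and 35.1% at P8, shares within 1 library each that were not tested.

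Tie1 passed no contrast between gates. Gja4-only cells held 263 CPM (E15.5), 314 (E18.5), 217 (P8), 315 (labelled control) and 301 (labelled null), and Gpihbp1-only cells held 154, 275, 204, 261 and 231 CPM in the same order. Car4-only cells held 280, 177, 165 and 247 CPM at E18.5, at P8 and in the libraries labelled control and null. The ranges of the 3 gates overlap when libraries are pooled. Within every library compared, Gja4-only cells held more than Gpihbp1-only cells, by 0.10 (P8) to 0.77 (E15.5) on the log2 scale. Car4-only cells held less than Gja4-only cells in every library compared. The log2 fold changes were 0.28 ± 0.15 for Gja4-only over Gpihbp1-only (adjusted p = 0.184), -0.13 ± 0.18 for Car4-only over Gpihbp1-only (adjusted p = 0.702) and -0.41 ± 0.18 for Car4-only over Gja4-only cells (adjusted p = 0.119). The small Gja4 excess passed in 2 of 16 settings and the Car4 deficit against Gja4 also in 2 of 16. In all sorted ECs Tie1 was 287, 225, 293 and 198 CPM in age order, with P8 lowest.

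Esm1 was higher in Gpihbp1-only than in Gja4-only cells and lowest in Car4-only cells. Gpihbp1-only cells held 15.6 CPM (E15.5), 16.4 (E18.5), 109 (P8), 19.9 (labelled control) and 12.7 (labelled null). Gja4-only cells held 9.50, 9.78, 43.2, 9.60 and 10.2 CPM, and Car4-only cells held 2.15 CPM at E18.5 (3 UMIs) and 5.67 at P8 (7 UMIs). No Esm1 UMI was found in the 20 and 41 Car4-only cells of the libraries labelled control and null, which allows up to 13.3 and 7.63 CPM. Car4-only cells were below Gpihbp1-only cells (log2 fold change -3.93 ± 0.44, adjusted p = 3.38e-05) and below Gja4-only cells (-2.99 ± 0.46, adjusted p = 0.000134). With cells of several markers admitted these were -1.61 (adjusted p = 0.00328) and -1.41 (adjusted p = 0.00092). Gja4-only cells were below Gpihbp1-only cells by 0.94 ± 0.18 on the log2 scale (fold 0.521, adjusted p = 0.00068). With cells of several markers admitted, so that the gates shared cells, the log2 fold change was -0.20 and did not pass (adjusted p = 0.605).

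In all sorted ECs Esm1 differed more between E18.5 and P8 than the other 6 genes. It was 8.88, 12.2, 14.4 and 84.6 CPM in age order, and after thinning 1.92%, 2.27%, 2.39% and 11.0% of ECs held a UMI. The prenatal values lay close together and P8 stood apart, 5.73-fold above E18.5. The log2 ratio of P8 over E18.5 was 2.69 (2.48 to 2.98) in Gpihbp1-only cells and 2.09 (1.90 to 2.39) in Gja4-only cells. Cells with several markers, left out of these gates, went from 19.0 to 93.1 CPM. After thinning, Esm1 was found in 4.98% of 603 Apln+ cells and 11.5% of Apln- cells at P8, which was not tested.

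Other genes of these pathways were described from a list of 10, of which 8 were expressed enough to test. Among them, the TIE2 phosphatase gene Ptprb passed in the same directions as Tek, at 1.84 ± 0.18 for Gja4-only over Gpihbp1-only cells (adjusted p = 9.38e-07) and -2.14 ± 0.24 for Car4-only over Gpihbp1-only cells (adjusted p = 3.38e-05). Foxo1, a transcription factor held in check by TIE2 signalling through AKT, had values of 1.53 ± 0.15 (adjusted p = 8.16e-07) and -1.20 ± 0.24 (adjusted p = 0.00305), and the integrin gene Itga5 had 0.68 ± 0.11 (adjusted p = 9.2e-05) and -1.30 ± 0.18 (adjusted p = 0.000154). In Gja4-only over Gpihbp1-only cells 4 of 8 were higher and 0 lower, against 13.7% and 14.9% of all genes, the fourth being Pik3r1 at 0.67, with a list median of 0.67 against -0.00 for all genes. In Car4-only over Gpihbp1-only cells 0 were higher and 3 lower, against 6.26% and 7.91% of all genes, with a list median of -0.05 against -0.06. Svep1, Dok2, Itgb1 and Aggf1 passed in none of the 3 contrasts. The second apelin receptor ligand, Apela, was at 0 to 3 UMIs in the ECs of each library and was not tested, like Angpt4.

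Of 18 tip cell genes other than the members, all were tested. In Gja4-only against Gpihbp1-only cells 13 were lower and 4 higher, where 14.9% of all genes were lower and 13.7% higher, with a list median of -1.29 against -0.00 for all genes. They were led by Trp53i11 (-2.66), Ramp3 (-2.41), Nid2 (-2.04) and Plaur (-1.58) below and by Kcne3 (2.28), Cxcr4 (1.30), Unc5b (1.14) and Dll4 (0.84) above. In Car4-only against Gpihbp1-only cells 3 were higher, Adm (1.70), Kdr (1.30) and Plaur (1.07), and 3 lower, Igfbp3 (-3.67), Cxcr4 (-2.26) and Lamb1 (-0.89), where 6.26% and 7.91% of all genes passed, with a median of -0.09 against -0.06. In Car4-only against Gja4-only cells 11 were higher and 5 lower, where 10.3% and 10.5% of all genes passed, with a median of 1.28 against -0.07. Tip cell genes therefore did not move as 1 group. Apln and Esm1, both used as tip cell markers, went in opposite directions in Car4-only cells, Apln together with Adm, Kdr and Plaur and Esm1 together with Igfbp3 and Cxcr4. From E18.5 to P8 in all ECs, where Esm1 was 5.73-fold higher, 2 of 17 tip cell genes with 10 CPM or more were at least 2-fold higher (Cxcr4 and Ramp3) and 4 at least 2-fold lower (Nid2, Trp53i11, Lamb1 and Igfbp3), against 4.15% and 4.31% of all genes.

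Genes whose levels tracked each member over the 20 EC populations of the libraries were ranked among 8973 genes by Pearson's r of log2(CPM + 1). These populations share libraries and depth, and r is given as a description. The closest to Apln were Nt5c (0.960), Homer3 (0.958) and Trim16 (0.957). Tek was closest to Sema3g (0.957), a semaphorin expressed by arterial ECs, and then to Tnks1bp1 (0.949) and Utrn (0.946). Aplnr lay closest to Rgcc (0.884), Car14 (0.875) and Fuom (0.845), and Esm1 to Adgrl4 (0.929), an adhesion receptor of ECs, 1110038F14Rik (0.914) and Ptpn2 (0.897). Values were lower for Tie1 (Zfp358, 0.857; Agrn, 0.829; Rgs3, 0.816), for Angpt1 (Hoxb3, 0.854; Rbpj, 0.851; Cxcl14, 0.834) and for Angpt2 (Cherp, 0.833; B4galt5, 0.826; Ints14, 0.826).

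In whole lungs, all cells were clustered without the 7 genes and clusters named from fixed markers as "-like", and classes hold the cells outside the EC gate. Apelin and its receptor were in the same compartment, whereas the angiopoietins were highest outside ECs. Apln, Aplnr, Esm1 and Tie1 were found mainly in ECs, with no other class above 2.49, 2.17, 2.78 and 5.29 CPM in either library. Tek stood at 104 and 95.6 CPM in ECs of the libraries labelled control and null. It was also counted in adventitial fibroblast-like cells at 26.7 (20.1 to 34.8) and 23.5 CPM (19.8 to 27.7) and in pericyte-like cells at 12.8 and 10.5 CPM, against 1.11 and 1.02 CPM in the more numerous alveolar fibroblast-like cells. With the authors' SoupX-adjusted values the second class for Tek in the library labelled control was listed at 0, and in the library labelled null it was again adventitial fibroblast-like cells, at 16.1 CPM.

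Angpt1 was highest in mesenchyme. Among named classes, alveolar fibroblast-like cells held 123 and 114 CPM, adventitial fibroblast-like cells 102 and 92.3 CPM and pericyte-like cells 90.8 and 59.1 CPM in the libraries labelled control and null. An unnamed cluster led by Igfbp2, Stc2 and Osr2 held 145 and 125 CPM. Smooth muscle-like cells held 20.7 and 11.1 CPM and myofibroblast-like cells 7.94 and 5.63 CPM, beside 6.03 and 6.46 CPM in ECs. Those EC values were 0.490 and 1.22 CPM without ECs holding UMIs of other classes, and 2.15 and 2.32 CPM in endothelial clusters.

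Angpt2 had a different distribution among the same cells. Myofibroblast-like cells held 72.8 (66.4 to 79.7) and 56.5 CPM (51.0 to 62.4) and pericyte-like cells 72.3 (62.5 to 83.3) and 52.1 CPM (44.1 to 61.2), which do not differ beyond counting error, and smooth muscle-like cells held 38.1 and 45.4 CPM. An unnamed cluster led by Cpne7, Vsnl1 and Stc1 held 51.0 and 36.5 CPM. Alveolar fibroblast-like cells, the main Angpt1 class, held 4.29 and 3.24 CPM. Adventitial fibroblast-like cells held 29.1 and 33.8 CPM. ECs, at 13.9 and 8.88 CPM, were below the myofibroblast-like, pericyte-like, smooth muscle-like and adventitial fibroblast-like classes in both libraries. Svep1, whose product binds TIE1, was highest in alveolar fibroblast-like cells among named classes, at 190 and 186 CPM, and Ptprb was at 487 and 433 CPM in ECs and at most 4.57 CPM in any other class.

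**Figure D4:**
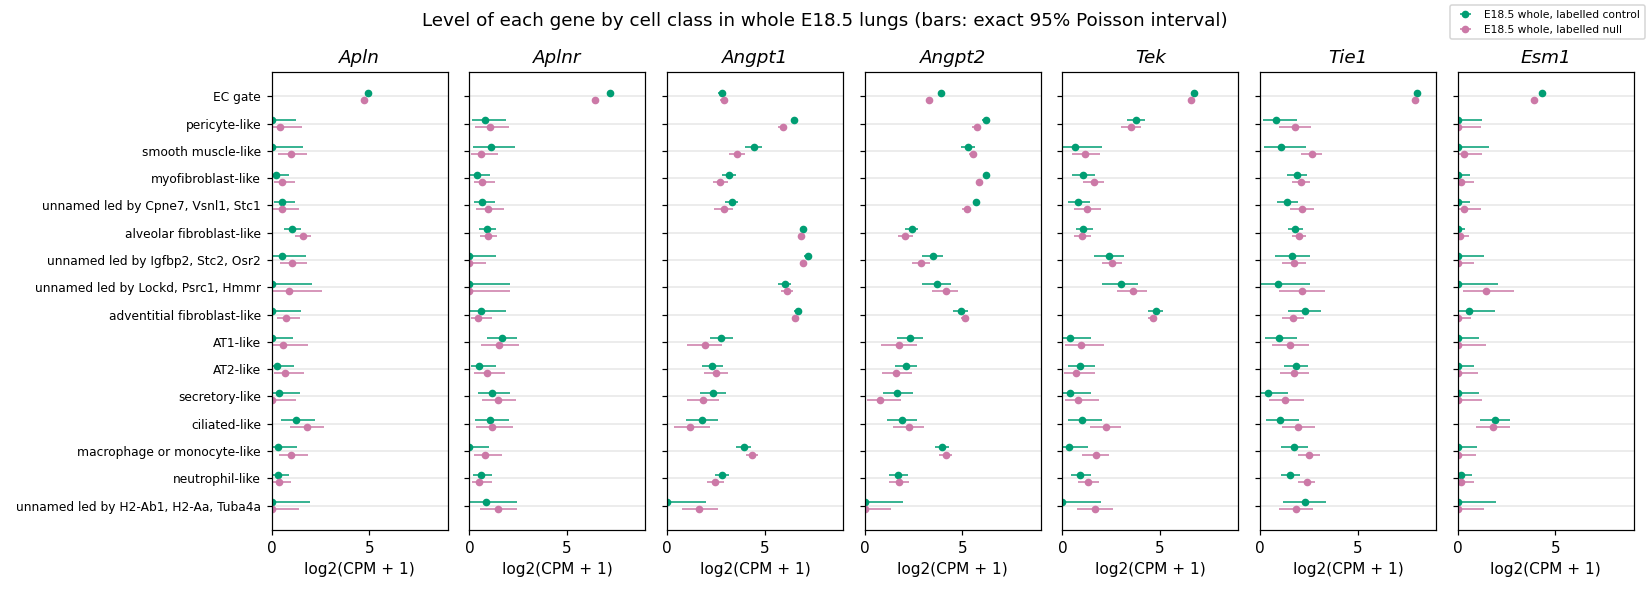
Level of each gene, as log2(CPM + 1), by cell class in the 2 whole E18.5 lung libraries; dots are 1 library each, bars are exact 95% Poisson intervals, and classes hold cells outside the EC gate. Apln, Aplnr, Tie1 and Esm1 sit in the EC row, and Tek is highest there, with lower levels in adventitial fibroblast-like and pericyte-like rows. Angpt1 is high in fibroblast-like and pericyte-like rows and highest in the unnamed row led by Igfbp2, Stc2 and Osr2. Angpt2 is high in myofibroblast-like, pericyte-like and smooth muscle-like rows and in the unnamed row led by Cpne7, Vsnl1 and Stc1.

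The whole-lung libraries were compared with each other by labelled Cxcl12 genotype. Cxcl12 levels contradict their labels, so directions below name the labels only. By Xist the libraries also differ in sex, which cannot be told apart from genotype in any ratio below. Of the 7 genes, 6 reached 10 CPM and 0 differed by 2-fold in all ECs, where 0.286% of 8749 genes were at least 2-fold higher and 0.560% at least 2-fold lower in the library labelled null. Aplnr was furthest from equal, at 145 CPM (139 to 150) in the library labelled control and 86.1 CPM (83.1 to 89.3) in the library labelled null, a log2 ratio of -0.74 (-0.82 to -0.67). Within Gpihbp1-only cells, which made up 1169 of 2022 and 1178 of 3042 ECs, it was -0.29 (-0.38 to -0.20). In the 205 and 222 ECs with none of the markers Aplnr passed 2-fold, at 200 and 89.6 CPM (-1.15, -1.40 to -0.92), the 1 of 5 members to do so, where 5.88% of genes were higher and 1.49% lower. In the gates 0 members passed, of 5 in Gja4-only cells (0.753% of genes higher and 0.639% lower), 6 in Gpihbp1-only cells (0.300% and 0.519%) and 4 in Car4-only cells (14.7% and 13.1%).

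Angpt2 had a log2 ratio of -0.62 (-0.89 to -0.41) and Esm1 of -0.38 (-0.59 to -0.20), with -0.65 and -0.63 in Gpihbp1-only cells. The Tie receptor genes were near equal in all ECs, Tek at -0.11 and Tie1 at -0.10, but this pools gates of unequal shares. Tek was -0.36 (-0.49 to -0.23) in Gpihbp1-only, -0.68 (-1.03 to -0.35) in ungated and -0.15 (-0.30 to 0.01) in Gja4-only cells. Tie1 was -0.17, -0.49 and -0.07 in the same order. In Car4-only cells both ratios were positive, Tek at 0.49 (-2.09 to 3.91) and Tie1 at 0.58 (0.02 to 1.17). Apln stood at 29.6 and 25.6 CPM in the libraries labelled control and null (log2 ratio -0.20, -0.36 to -0.06). Apln is X-linked and the libraries differ in Xist as given above, and the part of this in its ratio was not tested. Angpt1 did not differ beyond counting error (0.09, -0.22 to 0.43). Its ratio moved when ECs holding UMIs of other classes, or doublets, were left out, with the values given in the last section. SoupX-adjusted values held 40.9% and 18.8% fewer EC UMIs than the raw values in the libraries labelled control and null. The SoupX values also lack Gm42418, a likely ribosomal RNA gene per the study's methods, and its part in these shares was not tested. With SoupX-adjusted values the Aplnr ratio was -1.15, past 2-fold. With 1 library a side, no difference between animals of a genotype can be separated from a difference between libraries.

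**Figure D5:**
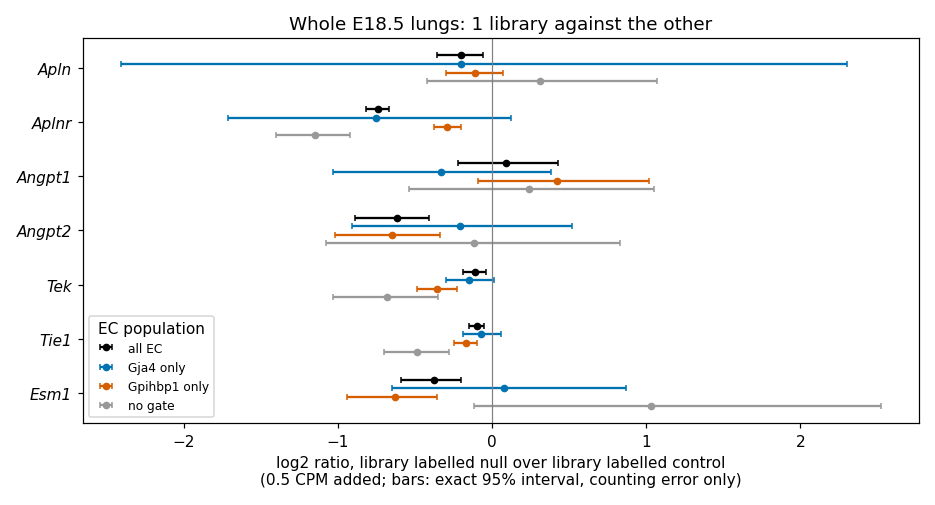
Log2 ratio of each gene in the library labelled null over the library labelled control, in all ECs (black) and in cells with Gja4 only (blue), Gpihbp1 only (orange) or none of the 3 markers (grey); bars are exact 95% intervals for counting error. Aplnr lies at -0.74 in all ECs, -0.29 in Gpihbp1-only cells and -1.15 in cells with none of the markers. Tek and Tie1 lie at -0.11 and -0.10 in all ECs and at -0.15 and -0.07 in Gja4-only cells. They lie at -0.36 and -0.17 in Gpihbp1-only cells and at -0.68 and -0.49 in cells with none of the markers.

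Set beside the sorted E18.5 library, the whole-lung ECs held more Aplnr (145 and 86.1 CPM in the libraries labelled control and null, against 43.8) and less Tek (104 and 95.6, against 165 CPM). Gja4-only cells were 3743 of 9119 ECs after the sort, and 238 of 2022 and 647 of 3042 in whole lungs. Within Gpihbp1-only cells Aplnr was 183, 150 and 114 CPM and Tek was 83.7, 65.3 and 88.3 CPM in the libraries labelled control and null and the sorted library.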

How the data were processed

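Droplet 3′ libraries were made from sorted or whole lung cells, 1 per condition. Per the labels and the study's methods, the authors aligned reads with Cell Ranger 3.1 to mm10 and deposited raw UMI counts per cell for all 6 libraries, and expected counts after ambient RNA removal with SoupX for whole lungs. The labels also name Seurat 3.2.2. The deposited counts were used for all main values, and the SoupX values as an alternative. A 3′ count does not scale with gene length, so levels are compared between populations and not between genes.

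Cells were dropped below 700 genes or outside a mitochondrial share of 0.5 to 10%. UMIs were summed by library and population. Populations of at least 20 cells entered edgeR 4.0.16 (R 4.3.3; quasi-likelihood test, TMM, library as covariate, Benjamini-Hochberg over all genes tested, with the gating genes left out of the 14450 genes behind counts of calls), with DESeq2 1.42.0 as an alternative. EdgeR was checked on counts simulated from its own fit for Car4 against Gpihbp1 (14455 genes, 100 changed at each size). It recovered 52% of 2-fold and 75% of 4-fold changes, and 7 calls (5.22%) were false. Simulated gate effects were the same in every library, so the check does not cover effects that differ by age. Log2 ratios between libraries added 0.5 CPM, and their background was taken over genes of at least 10 CPM in either library. Intervals are exact, cover counting error only, and a count of 0 was read as an upper limit of 3 counts. Whole-lung cells were clustered with scikit-learn 1.9.0 (20 components) and igraph 0.11.9 (Louvain resolution 0.8), and classes of at least 50 cells named from at least 3 markers. Rules that leave clusters led by cell cycle genes, or by free haemoglobin RNA, without a name were set after the clusters were seen. Doublets were scored with Scrublet, run in scanpy 1.11.5, and left out as an alternative. Scrublet's automatic threshold marked under 0.5% of cells in the E13.5, E18.5 and P8 libraries. The top 5% of scores was therefore used there, a rule set after seeing this.

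The genes, the gene lists and the rules were chosen with earlier results of these data known. The 7 genes are always named, of each list up to 4 genes a direction by size of change, and for likeness the 3 genes of highest r. Promoters are from RefSeq (GRCm38.p6), which matched 4 of the 7 genes. Alternatives tried were gate definitions, depth thinning, filters, pseudocount, normalization, doublets, shared barcodes and each library left out.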

Additional observations from a re-analysis of the deposited data

Results flagged for a closer look

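Aplnr in Car4-only against Gja4-only cells had a log2 ratio of -2.33 at P8 (9 and 337 UMIs) and of 2.51, 2.05 and 3.24 in the sorted E18.5 library and the whole E18.5 libraries labelled control and null. P8 was thus opposite in sign to the 3 E18.5 libraries in cells that met 1 gate only. With cells of several markers admitted, all cells with Car4 and all with Gja4, which share cells, held 73.0 and 78.3 CPM at P8, 46.3 and 20.8 CPM in the sorted E18.5 library, 77.9 and 58.3 CPM in the library labelled control, and 59.3 and 38.0 CPM in the library labelled null, so most of the P8 difference was gone. The difference between ages was not tested, since P8 is 1 library. With all libraries the fitted contrast was 1.24 (edgeR, adjusted p = 0.242). It passed in 1 of 16 settings, the fit without P8, at 2.50. That fit leaves out the library picked here for its opposite sign, so its call is no separate support.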

How the results depend on the processing

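Gate contrasts compare populations of the same library, with library as a covariate, and are paired in that sense. For ages and genotypes a replicate pairing cannot be had: No paired analysis was possible because each is 1 library. Counts of genes called moved by over 1.5 times in these cases. With overlapping gates 282 genes were higher and 107 lower for Car4 against Gpihbp1, and 787 higher and 660 lower for Gja4 against Gpihbp1. Thinned to 2000 UMIs the counts were 597 and 622 for the first and 1248 higher for the second. With the sorted libraries alone the first gave 593 and 641. Leaving out 1 library gave 408 to 1033 higher and 481 to 1032 lower for Car4 against Gpihbp1, the fewest without sorted E18.5 (408 and 481) and 487 higher without P8, and 826 to 1676 higher for Car4 against Gja4, the fewest again without sorted E18.5.

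Between E15.5 and E18.5 the log2 ratios under mean per-cell CPM were 0.70 for Apln, -0.42 for Aplnr, -0.34 for Angpt1 and 0.38 for Esm1. A pseudocount of 5 CPM gave 0.66 for Apln and 0.29 for Angpt2, which was 1.01 without cells holding UMIs of other classes. Between E18.5 and P8 mean per-cell CPM gave 0.92 for Apln and 0.96 for Aplnr, and a pseudocount of 5 CPM gave 1.12 for Apln and 2.21 for Esm1. For the library labelled null over that labelled control, SoupX values gave -0.62 for Apln, -1.15 for Aplnr, -0.43 for Tek, -0.46 for Tie1 and -0.71 for Esm1. Aplnr was -0.91 by mean per-cell CPM, -0.84 without doublets and -0.85 without cells holding UMIs of other classes. Those cells left out gave 0.80 for Angpt1, -0.21 for Tek and -0.16 for Tie1, and doublets left out gave -0.25 for Angpt1. The leaving out of cells with shared barcodes or other-class UMIs for this ratio, and of doublets or shared barcodes for gates, was chosen after seeing the data.

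By class, SoupX values in ECs were, in the libraries labelled control and null, 45.7 and 29.6 CPM for Apln, 217 and 97.7 for Aplnr, 143 and 106 for Tek, 362 and 264 for Tie1 and 27.6 and 16.6 for Esm1. They were 188 and 135 for Angpt1 in alveolar fibroblast-like and 108 and 65.5 for Angpt2 in myofibroblast-like cells, the last being 60.9 and 49.1 at resolution 0.4. Without doublets ECs held 162 and 90.5 CPM of Aplnr, 116 and 103 of Tek, 289 and 266 of Tie1, 20.7 and 16.2 of Esm1, and 28.0 of Apln in the library labelled null. The SoupX values held fewer EC UMIs than the raw values, by unequal shares in the 2 libraries. The cause of these shifts, with SoupX or without doublets, was not tested. In the library labelled control pericyte-like cells, at 74.2 CPM, became the highest class for Angpt2 without doublets or shared barcodes. Over all alternatives 61 values of the main results moved beyond their limits and 238 did not. Ratios between ages within gates were outside this set, and some turned when cells with several markers were admitted, as given for Apln and Aplnr. Among gate contrasts and ratios over all ECs, no fold change past its test changed sign, but 4 values near 0 did. These were Angpt1 between E15.5 and E18.5 (0.08, to -0.34), Angpt1 between the whole-lung libraries (0.09, to -0.25), Angpt2 for Car4 against Gja4 (-0.09, from -1.57 to 0.53) and Tie1 for Car4 against Gpihbp1 (-0.13, from -0.22 to 0.01). With overlapping gates, which share cells, the fitted fold changes of Apln, Angpt1 for Gja4 against Gpihbp1, Tek, Esm1 and Aplnr shrank, to values given with each gene. Few cells limit the Car4-only values of the libraries labelled control and null, which rest on 20 and 41 cells.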
